A study of Mus musculus with 2 samples.

Results

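The 40 genes described here encode receptor chains for cytokines: interleukins, interferons, growth hormone-type ligands, tumour necrosis factor (TNF) and the transforming growth factor β (TGF-β) and activin ligands. They were taken as a named list, and all 40 were found among the 21853 protein-coding genes of the GENCODE M21 annotation. Chromatin accessibility had been measured by ATAC-seq, which uses Tn5 transposase to tag open DNA, in megakaryocyte-erythroid progenitors (MEP), the marrow cells that give rise to platelets and red cells. There was 1 group of 2 libraries, each made from 50000 primary MEP of adult male C57BL/6J mice aged 5 to 6 weeks, with no treatment or altered gene named. The libraries were labelled biological replicates 1 and 2, had a biosample entry each and named the same donor entry, so separate animals were not stated and the spread between them may be technical. With 1 group there was no contrast to test, and the values of the receptor genes are given beside those of all protein-coding genes.

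Cytokine receptors work as assemblies of chains. A private chain binds its ligand and often pairs with a chain that several cytokines share, such as gp130 or the common gamma chain, and the pair passes the signal to Janus kinases (JAK) and STAT factors; receptors of the IL-1, TNF and TGF-β types signal through other adaptors or through their own kinase. MEP lie on the branch that responds to erythropoietin, while many interleukin receptors are best known from lymphocytes, granulocytes and macrophages. The list was therefore read in 4 classes: 8 chains shared by several receptors, 14 receptors restricted to certain leukocytes, 6 receptors known mainly outside blood cells, and 12 widely expressed receptors.

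A promoter was counted as accessible when a region of the list thresholded on the irreproducible discovery rate (IDR) lay within 1 kb of a transcription start site (TSS) of the gene in both libraries. The fold of a region is the authors' own value for its strongest peak, read as enrichment over local background. These lists held 26353 and 28142 merged regions in replicates 1 and 2, and longer lists of the same libraries, called pseudoreplicated, held 60668 and 63635. The depth of the libraries is unknown, so a promoter without a call was not detected and cannot be called closed. The label was checked on marker genes. Of 9 erythroid and megakaryocyte progenitor markers 7 were accessible, beside 45.7% of all protein-coding genes. Among them were Gata1 at fold 4.69 and 5.12 and Tfrc at 10.4 and 11, and Gfi1b and Itga2b were not accessible. In the longer lists Gfi1b had 4.47 and 3.78 and Itga2b 3.04 and 3.86. All 9 markers had a region in both longer lists, beside 56.5% of all genes. No marker of granulocytes and macrophages (6), T and NK cells (5), or mast cells and basophils (4) had a promoter region in both libraries, even in the longer lists, whereas 2 of 4 B cell markers (Pax5 and Ebf1) and 1 of 3 dendritic cell markers (Zbtb46) were accessible. The markers of the groups without a call were all CpG-poor, as defined below. Of all CpG-poor genes 18.6% were accessible, and 27.3% had a region in both longer lists. Cpa3, a mast cell and basophil marker, had a region in the longer list of replicate 2, at 4.65. Of 3 endothelial markers none was accessible, but Tek was called in both longer lists, at 4.98 and 4.83, and Pecam1 in that of replicate 2, at 4.55.

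Of the 40 receptor genes, 19 (47.5%) had an accessible promoter, against 45.7% of all protein-coding genes, so the share was close to the background. A further 3 genes had a region in 1 library only (against 4.21% of all genes), and 18 had none in either. Taken singly, replicate 1 gave 21 genes (against 47.7% of all genes), replicate 2 gave 20 (against 47.9%), and the authors' conservative list across both libraries 25 (against 54.5%). The conservative list added Il15ra, Il17ra, Il18r1, Il1r1, Il27ra and Il6ra to the 19. In the longer lists, 26 genes (65.0%) had a region in both libraries, against 56.5% of all genes, and 10 genes had none in either library. The fold of the 19 accessible promoters had medians of 7.5 and 7.78 in replicates 1 and 2, below the 8.38 and 8.82 of all accessible promoters. Only 5 of the 19 lay above those medians in both libraries, and 10 lay below in both. The summit lay within 0.3 kb of a TSS in both libraries for 16 of the 19. The fold was higher in replicate 2 for 14 of the 19 genes and lower for 5, and the SD between the libraries ran from 0.0177 to 1.47 fold units (n = 2), with a median of 0.41.

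**Figure D1:**
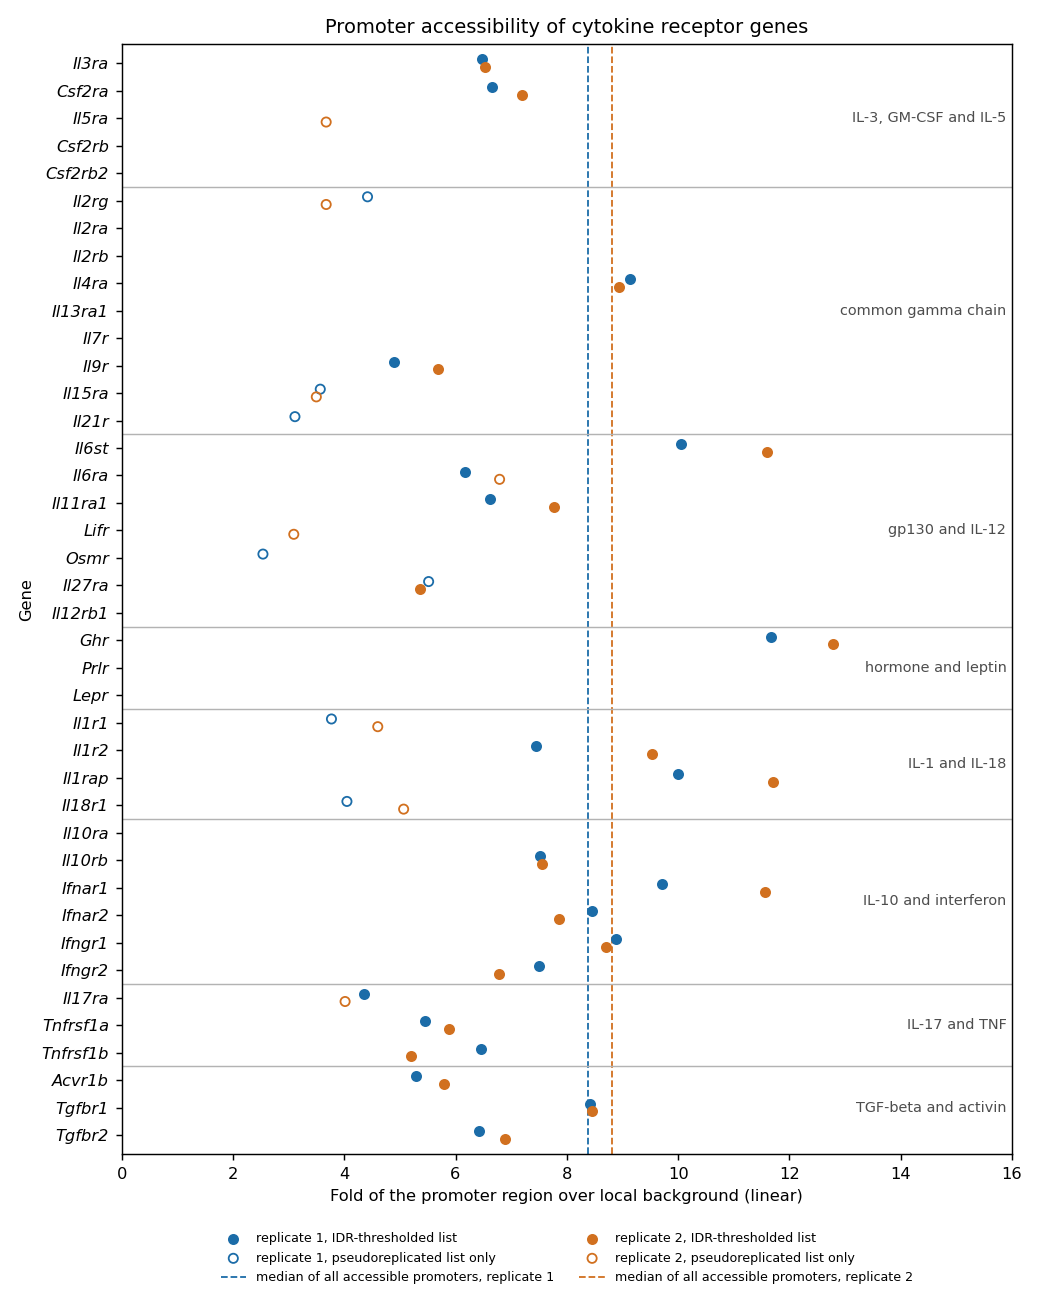
Fold of the promoter region (linear axis) of each receptor gene in replicate 1 (blue) and replicate 2 (orange), by receptor family; filled points come from the IDR-thresholded lists and open points from the longer lists where the stricter list had none. Dashed lines mark the medians of all accessible promoters, 8.38 and 8.82. Ghr, Il1rap, Il6st, Ifnar1 and Il4ra lie to the right of the line of each library, and 10 genes have no point.

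The classes differed in these counts, and the share of all genes was 45.7%. Of the 12 widely expressed receptors 9 (75.0%) were accessible, of the 8 shared chains 4 (50%), of the 6 receptors known mainly outside blood 2 (33.3%), and of the 14 leukocyte-restricted receptors 4 (28.6%). In the longer lists all 12 widely expressed receptors and 6 of the 8 shared chains (75.0%) had a region in both libraries, against 6 of the 14 restricted receptors (42.9%). The share of all genes in those lists was 56.5%. The order of shared and restricted receptors rested on the class definition. With Il2rb, Il7r, Il12rb1, Lifr and Osmr, which receptors of more than 1 cytokine also use, counted as shared, 4 of 13 shared chains were accessible (30.8%), and without Il2rb, Il7r and Il12rb1 4 of 11 restricted receptors were (36.4%). Genes are not replicates of a class, and no test was made between the classes. CpG content moved with the class: 12 of the 14 restricted receptors were CpG-poor, against 4 of the 8 shared chains and 4 of the 12 widely expressed receptors. CpG content was read from the 1 kb around 1 TSS of each gene, that with the highest CpG observed-to-expected ratio. A gene was called CpG-rich when this window had a ratio of at least 0.6 and a GC content of at least 50%, and CpG-poor otherwise.

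Among the 16 CpG-rich receptor genes 13 were accessible (81.2%), beside 73.0% of all CpG-rich genes, and among the 24 CpG-poor ones 6 (25.0%), beside 18.6% of all CpG-poor genes. With stricter limits on CpG content the latter count was 7 of 25 (28%), beside 27.6% of all genes below them. In both longer lists 11 of the 24 CpG-poor receptor genes had a region (45.8%), beside 27.3% of all CpG-poor genes. The 3 CpG-rich genes that were not called in both libraries were Il6ra, Il17ra and Lifr. The 6 CpG-poor genes that were accessible were Il9r, Il11ra1, Il1r2, Il10rb, Tnfrsf1a and Tnfrsf1b. Within the CpG-poor genes, 2 of 12 restricted receptors, 1 of 4 shared chains and 2 of 4 widely expressed receptors were accessible. The part of CpG content in the difference between the classes was not tested.

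**Figure D2:**
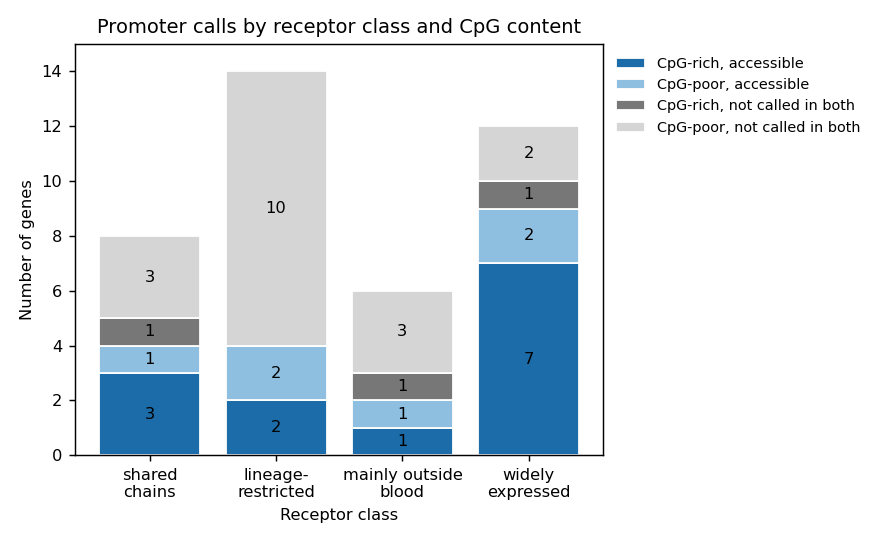
Number of receptor genes in each class, split by CpG content of the promoter and by whether a region was called in both libraries (blue) or not (grey). The restricted class holds 10 CpG-poor genes without a call in both libraries, and the widely expressed class holds 7 CpG-rich accessible genes.

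The 200 bases before the first TSS of 2 shared chains and of 2 ligand-binding chains show this contrast in base composition. They were read 5′ to 3′ from the RefSeq GRCm38.p6 (mm10) genome, on the plus strand, and capitals mark each CG.
Il6st, chr13:112463870-112464069, accessible: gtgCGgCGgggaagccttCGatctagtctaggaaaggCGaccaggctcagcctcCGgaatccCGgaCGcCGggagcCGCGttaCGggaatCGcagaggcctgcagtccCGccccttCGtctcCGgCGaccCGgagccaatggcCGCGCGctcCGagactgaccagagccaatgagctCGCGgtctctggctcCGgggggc
Csf2rb, chr15:78325552-78325751, no region called: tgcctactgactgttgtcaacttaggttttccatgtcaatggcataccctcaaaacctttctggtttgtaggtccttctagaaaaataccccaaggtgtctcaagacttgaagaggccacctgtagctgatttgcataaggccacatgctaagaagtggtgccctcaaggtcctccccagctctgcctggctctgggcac
Il3ra, chr14:14346075-14346274, accessible: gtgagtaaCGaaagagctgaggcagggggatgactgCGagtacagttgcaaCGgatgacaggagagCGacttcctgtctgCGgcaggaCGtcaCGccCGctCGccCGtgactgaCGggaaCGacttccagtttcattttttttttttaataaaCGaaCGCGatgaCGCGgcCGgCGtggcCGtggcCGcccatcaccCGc
Il2ra, chr2:11642607-11642806, no region called: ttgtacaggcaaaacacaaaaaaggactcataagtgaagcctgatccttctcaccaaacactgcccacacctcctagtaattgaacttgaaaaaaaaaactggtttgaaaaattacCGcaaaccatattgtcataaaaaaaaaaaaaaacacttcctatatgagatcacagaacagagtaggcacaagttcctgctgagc
The word accessible refers to the promoter of the gene, not to each printed base. For Il3ra, the region of replicate 1 (chr14:14345453-14345946) ended before the printed stretch, and that of replicate 2 (chr14:14345389-14346387) covered it. The sequences hold 24 CG for Il6st and 22 for Il3ra, against 0 for Csf2rb and 1 for Il2ra. GC content was 69.5% and 58.5% in Il6st and Il3ra, and 49.5% and 37.0% in Csf2rb and Il2ra.

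In the IL-3, GM-CSF and IL-5 family, the ligand-binding chains and the shared beta chain differed. Il3ra, which binds IL-3, had promoter folds of 6.47 and 6.52 in replicates 1 and 2 (chr14:14345410-14346402 in the conservative list). Csf2ra, which binds GM-CSF, had 6.66 and 7.19, with the summit 39 bp past a TSS 1.04 kb downstream of the first. Csf2rb, the signalling chain shared by the receptors for these 3 cytokines, and Csf2rb2, the IL-3-specific beta chain of mice, had no promoter region in any per-library list. Il5ra, the IL-5-binding chain of eosinophils, had a region only in the longer list of replicate 2, at fold 3.68. The pair of beta chains lies side by side on chromosome 15 and had distal regions nevertheless: 3 for Csf2rb and 5 for Csf2rb2, of which 3 were counted for both. The strongest, in a Csf2rb intron at chr15:78340099-78340356, had folds of 5.20 and 7.83, and the others of the shared set lay between the 2 genes at chr15:78312196-78313050 and chr15:78318573-78319323.

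In the common gamma chain family, grouped here with Il13ra1 of the IL-13 receptor, 2 of 9 genes were accessible (22.2%), beside 45.7% of all genes. Of the 9 genes 8 were CpG-poor, and 18.6% of all CpG-poor genes were accessible. Il4ra, which the IL-4 and IL-13 receptors share, had folds of 9.13 and 8.94, with the summit 73 bp before a TSS 0.151 kb downstream of the first. Il9r, which binds IL-9, had the lowest folds of any accessible receptor promoter in replicate 1, 4.89, and 5.69 in replicate 2. These values placed Il9r at percentiles 8.68 and 14.3 of the promoter regions of the 2 libraries. Il2rg, the common gamma chain itself, appeared only in the longer lists, at 4.42 and 3.68. Il15ra, which presents IL-15, had 3.57 and 3.50 there, and Il21r had 3.12 in replicate 1 only. Il2ra and Il2rb (the alpha and beta chains for IL-2), Il7r (the IL-7-binding chain of lymphoid cells) and Il13ra1 (the partner of Il4ra for IL-13) had no promoter region in any per-library list.

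In the gp130 and IL-12 family, the shared chain stood highest. Il6st, which encodes gp130, had folds of 10.1 and 11.6 (10.8 ± 1.09, SD, n = 2), at percentiles 77.5 and 86.7 of promoter regions. Its ligand-binding partners lay lower or were missed. Il11ra1, for IL-11, had 6.62 and 7.78 at a TSS 60.5 kb downstream of the first, so it was not accessible at its first TSS. Il6ra, for IL-6, passed the IDR threshold in replicate 1 only, at 6.18, and had 6.79 in the longer list of replicate 2. Il27ra, which pairs with gp130 for IL-27, passed in replicate 2 only, at 5.37, with 5.52 in the longer list of replicate 1. Lifr and Osmr, the partners for leukemia inhibitory factor and oncostatin M, each had 1 region in 1 longer list, at 3.09 in replicate 2 and 2.54 in replicate 1. Il12rb1, which the IL-12 and IL-23 receptors share, had none.

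Of the hormone-type receptors, Ghr had the highest promoter fold of all 40 genes. The growth hormone receptor, known chiefly from liver, had folds of 11.7 and 12.8 (chr15:3582972-3583710), at percentiles 90.5 and 93.7 of promoter regions. Prlr, the prolactin receptor, and Lepr, the leptin receptor, had no promoter region in any per-library list and were also the only 2 receptor genes without a distal region. Beyond its promoter Ghr itself had 2 distal regions, both in its introns.

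In the IL-1 and IL-18 family, Il1rap, the accessory chain that IL-1 receptors share with others of the family, had folds of 10 and 11.7. Il1r2, which encodes a decoy receptor for IL-1 known from neutrophils and other myeloid cells, had 7.45 and 9.53 at a TSS 11.9 kb downstream of the first. This gene had the largest spread between the libraries (SD 1.47, n = 2). Il1r1, the signalling IL-1 receptor, had no region in either IDR-thresholded per-library list. It was called in both longer lists, and its strongest region there differed between the libraries. In replicate 1 this region lay at a TSS 41.5 kb downstream of the first, at fold 3.77, and in replicate 2 at the first TSS, at fold 4.60. Il18r1, the IL-18-binding chain, was likewise called per library only in the longer lists, at 4.05 and 5.07. The conservative list across both libraries held a promoter region of each, at pooled folds of 3.84 for Il1r1 and 4.5 for Il18r1.

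Each interferon receptor gene of the list had an accessible promoter, beside 45.7% of all genes. All of them were CpG-rich, and 73.0% of all CpG-rich genes were accessible. Ifnar1 and Ifnar2, the 2 chains of the type I interferon receptor, had folds of 9.72 and 11.6 and of 8.45 and 7.87. Ifngr1, the ligand-binding chain for interferon gamma, had 8.88 and 8.71. Its partner Ifngr2 had 7.50 and 6.78, from a region whose summit lay about 1.37 kb before the first TSS and which only its edge brought within 1 kb. This region also counted among the distal regions of Ifngr2. Il10rb, shared by the receptors for IL-10 and related cytokines, had 7.53 and 7.55, whereas Il10ra, the IL-10-binding chain of leukocytes, had no promoter region in any per-library list.

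Folds at the TNF and IL-17 receptors were low. Tnfrsf1a and Tnfrsf1b, the 2 TNF receptors, had 5.44 and 5.88 and 6.46 and 5.20. Il17ra, shared by several IL-17 receptors, passed in replicate 1 only, at 4.36, and had 4.02 in the longer list of replicate 2. The TGF-β and activin receptors were all accessible, each from a CpG-rich promoter, beside 45.7% of all genes and 73.0% of CpG-rich genes. Tgfbr1, the type I kinase, had 8.42 and 8.46. Tgfbr2, the type II chain that binds TGF-β, had 6.43 and 6.89, and Acvr1b, a type I activin receptor, had 5.29 and 5.80.

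Distal regions were taken from the conservative list, with the summit over 1 kb from every protein-coding TSS and inside the gene or within 50 kb of it. Lying in such a window does not tie a region to the gene by function. A distal region was present for 38 of the 40 genes, against 77.7% of all genes. The mean was 4.62 per receptor gene (SD 3.53, n = 40 genes; median 3.5), and 3.28 over all genes (SD 3.37; median 3.0), with windows of almost the same mean width, 149.2 and 149.0 kb. At least 5 distal regions were found for 16 of the 40 genes (against 28.9% of all genes) and at least 10 for 6 (against 4.12% of all genes). Among those 6 were the neighbours Ifnar1, Ifnar2, Il10rb and Ifngr2, whose windows overlap, so the same region could count for several of them. At least 1 distal region lay inside the gene for 26 of the 40 (against 35.5% of all genes). The receptor genes were longer, with a median of 31.5 kb against 17.4 kb.

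The 185 pairs of gene and region held 153 distinct regions, because 29 were counted for more than 1 receptor gene. Of the 153, 84 lay in introns, 3 in coding exons, 9 in untranslated exons and 57 between genes. The nearest TSS belonged to a receptor gene for 75. Both IDR-thresholded per-library lists held 66 of them, 1 list held 30, and neither held 57, whereas both longer lists held 139. The fold in the pooled libraries had a median of 6.24 and ran from 2.32 to 14.5, beside a median of 6.34 for all distal regions.

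**Figure D3:**
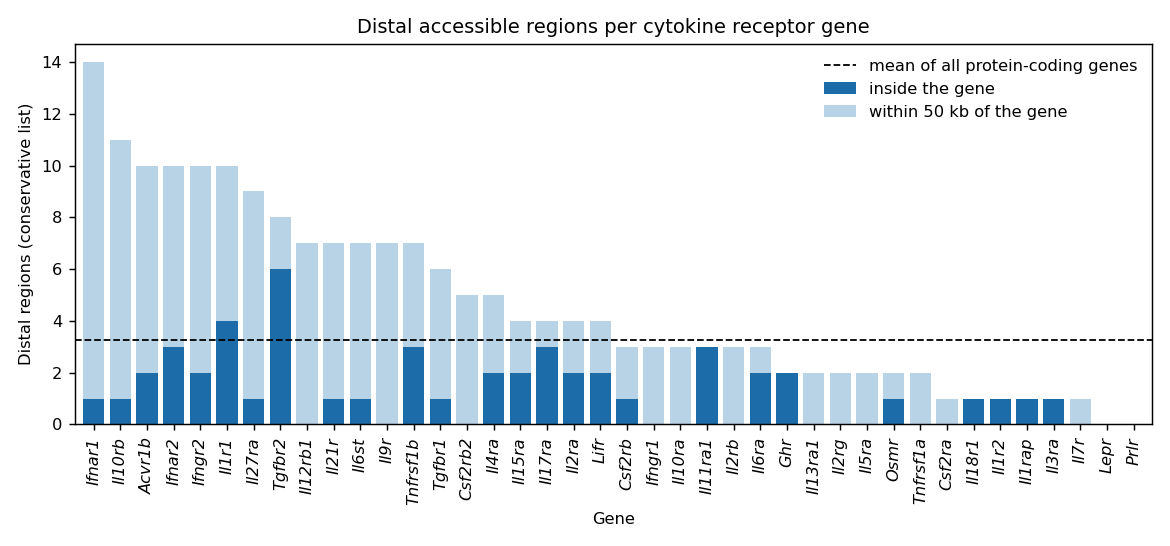
Number of distal regions of the conservative list for each receptor gene, split into those inside the gene (dark) and those within 50 kb of it (light). The dashed line marks the mean of all protein-coding genes, 3.28; Ifnar1 stands highest with 14, and Lepr and Prlr have none.

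By class the mean number of distal regions was 7.25 for the widely expressed receptors, 4.38 for the shared chains, 3.71 for the restricted receptors and 1.83 for those known mainly outside blood. Accessible receptor genes had a mean of 5.74 (SD 4.04, n = 19 genes) and the other 21 had 3.62 (SD 2.71). The same held over the genome, with 4.31 for accessible genes and 2.41 for the rest. A group of 4 neighbours on chromosome 16 weighed on the class means. Without Ifnar1, Ifnar2 and Ifngr2 the mean of the widely expressed class was 5.89 (n = 9), without Il10rb that of the shared chains was 3.43 (n = 7), and without all 4 that of the remaining 36 genes was 3.89.

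These 4 genes, Ifnar2, Il10rb, Ifnar1 and Ifngr2, follow each other in this order over 193.0 kb, and Il10rb begins 575 bp after the end of Ifnar2. Their windows held 23 distinct distal regions, counted 45 times over the 4 genes: 10 for Ifnar2, 11 for Il10rb, 14 for Ifnar1 and 10 for Ifngr2. Both IDR-thresholded lists held 12 of the 23. The strongest for Ifnar2 lay 35.8 kb before its first TSS (chr16:91336724-91337887), with folds of 9.82 and 9.89. The strongest for Il10rb and for Ifnar1 was the same intergenic region, chr16:91441254-91442222, with folds of 9.61 and 9.36. The strongest for Ifngr2 lay between Ifnar1 and Ifngr2 at chr16:91517004-91517759, with 8.44 and 9.45.

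**Figure D4:**
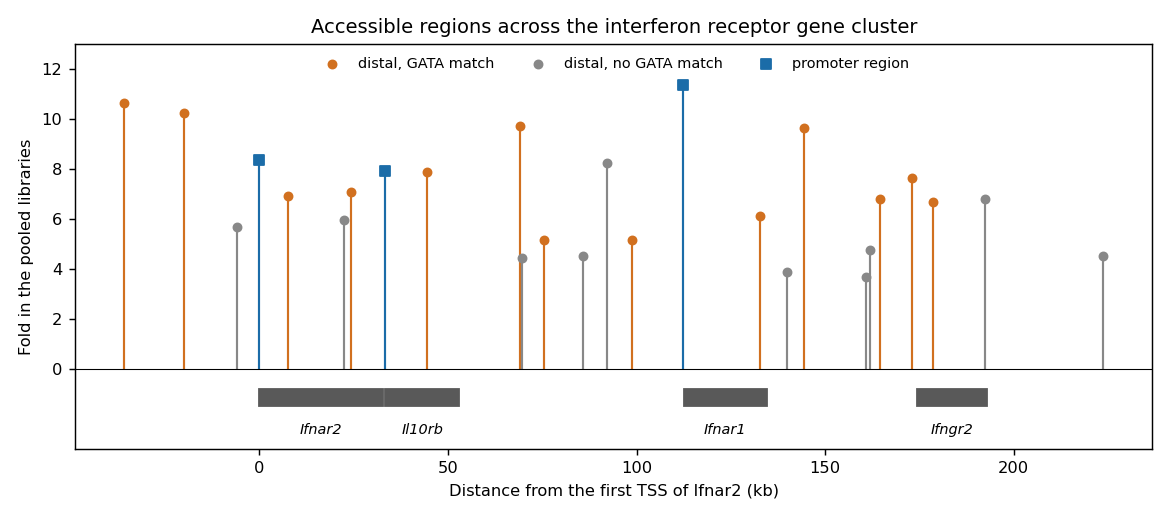
Fold in the pooled libraries (linear axis) of the regions of the conservative list across the 4 neighbouring receptor genes, by distance of the summit from the first TSS of Ifnar2. Squares are the promoter regions of Ifnar2, Il10rb and Ifnar1, circles the 23 distal regions, orange those with a GATA match near the summit; grey bars are the genes. The promoter region of Ifngr2 is among the circles, since its summit lay over 1 kb from the TSS.

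Several genes without an accessible promoter held some of the strongest distal regions. Il1r1 had 10, of which 4 lay in its own introns and 6 in Il1rl2, a neighbouring receptor gene of the same family. The intronic region at chr1:40303183-40303821, 78.3 kb past the first TSS, had folds of 12.4 and 13.8, and another at chr1:40311156-40311612 had 8.81 and 10.5. The region at chr1:40230050-40231066, 5.49 kb past the first TSS, had 9.02 and 10.3. The fourth, at chr1:40270416-40270851, had a pooled fold of 6.48 and passed the IDR threshold in replicate 2 only. The folds of the first 3 in each library exceeded both promoter folds of Il1r1 in the longer lists. Il2ra, with no promoter region in any per-library list, had an intronic region 21.4 kb past its TSS (chr2:11663758-11664820) with folds of 12.3 and 13.1. This region also lay in the window of its neighbour Il15ra.

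In the other genes not called in both libraries, the regions inside the gene were weaker. Pooled folds were 6.75 and 4.22 at the 2 intronic regions of Il6ra, 6.55 at that of Il18r1, 6.38 at that of Osmr, 5.07 at that of Il21r and 4.24 at that of Il27ra. Lifr had 2, at 5.12 and 4.22, Il15ra had 2, at 4.81 and 3.95, and the second intronic region of Il2ra had 6.24. Il17ra had 3, at 5.08, 4.07 and 3.72, with the higher pair in untranslated exons.

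The 10 distal regions of highest pooled fold included 2 Il1r1 regions and the Il2ra intron given above, the region before Ifnar2, and 6 more. Level with the first Il1r1 region, at 14.5, was one 72.4 kb past the first TSS of Acvr1b at chr15:101246090-101246685, with folds of 12.8 and 14.7, whose nearest TSS was that of Nr4a1 at 7.8 kb. An intergenic region past the 3′ end of Il9r, chr11:32162061-32162704, had 9.91 and 11.7 and had the TSS of Il9r as its nearest. A Tgfbr2 intron at chr9:116111108-116111783 had 10.8 and 10.6, and 1 in Gadl1, past the 3′ end of Tgfbr2, had 8.22 and 10.1. The other 2 lay between genes 34.9 kb before Osmr, with 9.94 and 9.50, and in a Tnfrsf8 intron 40.1 kb before Tnfrsf1b, with 8.55 and 10.8.

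For the remaining genes with 5 or more distal regions, the strongest often lay in another gene. That of Il6st lay in Il31ra, another receptor gene of its family that held 4 of its 7 regions, with folds of 6.72 and 8.95. That of Il21r lay in an intron of its neighbour Il4ra, with 7.44 and 6.88, and that of Tgfbr1 in Col15a1, with 7.26 and 8.76. Il27ra had 9 regions, the strongest intergenic with 9.46 and 9.60, and Il4ra had 5, the strongest 35.2 kb before its first TSS with 8.28 and 7.30. Il12rb1 had 7, but the strongest reached only 5.50 in replicate 2 and was absent from the stricter list of replicate 1. Of the 7 regions counted for Il9r, 3 lay in introns of Nprl3, the gene that holds the alpha-globin enhancers. The strongest of them, chr11:32245332-32246085, had folds of 8.08 and 9.02, 45.6 kb upstream of the first TSS of Il9r.

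The summit and 100 bases on either side of it, for 4 of these regions, are given because they include the strongest inside receptor genes and the region shared by neighbours. They were read from the plus strand of the same genome, and capitals mark each match to the GATA motif, AGATAA or TGATAA on either strand.
Il2ra intron, chr2:11664075-11664275: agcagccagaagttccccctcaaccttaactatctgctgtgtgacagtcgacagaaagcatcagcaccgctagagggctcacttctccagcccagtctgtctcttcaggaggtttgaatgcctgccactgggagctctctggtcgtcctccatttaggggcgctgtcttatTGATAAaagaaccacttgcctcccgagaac
Il1r1 intron, chr1:40303299-40303499: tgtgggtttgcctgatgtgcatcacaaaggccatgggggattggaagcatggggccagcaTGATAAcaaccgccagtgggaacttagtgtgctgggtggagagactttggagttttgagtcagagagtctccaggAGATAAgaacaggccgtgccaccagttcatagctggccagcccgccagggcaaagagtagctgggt
Tgfbr2 intron, chr9:116111229-116111429: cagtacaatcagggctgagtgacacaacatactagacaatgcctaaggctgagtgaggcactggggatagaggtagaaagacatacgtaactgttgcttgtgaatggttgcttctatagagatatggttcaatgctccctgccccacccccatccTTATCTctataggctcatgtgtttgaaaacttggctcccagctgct
Region between Il10rb and Ifnar1, chr16:91441864-91442064: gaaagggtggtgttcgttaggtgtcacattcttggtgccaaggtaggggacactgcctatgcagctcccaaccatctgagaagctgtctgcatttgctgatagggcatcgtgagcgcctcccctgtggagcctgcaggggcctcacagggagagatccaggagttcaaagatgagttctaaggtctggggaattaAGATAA
The Il1r1 sequence holds 2 matches and each of the others 1. A match is a description of the letters and not a bound site.

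Over all 153 regions the motif shares lay near those of all 33378 distal regions. GATA was found in 40.5% against 42.3%, the STAT motif TTCNNNGAA in 3.92% against 4.57%, the RUNX motif TGTGGT in 16.3% against 21.4% and the ETS motif CCGGAA in 6.54% against 3.76%, each within 100 bp of the summit and on both strands. By class, GATA was found in 37 of 76 regions of the widely expressed receptors (48.7%), 16 of 35 of the shared chains (45.7%), 17 of 52 of the restricted receptors (32.7%) and 1 of 11 of those known mainly outside blood (9.09%). Regions shared by classes were counted in each. In the interferon receptor cluster 13 of 23 held it (56.5%), and in the Il1r1 window 7 of 10.

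At the 19 accessible promoters GATA was found near the summit of Il9r, Il1r2 and Ifngr2 (15.8%, beside 7.47% of all accessible promoter regions). The Ifngr2 region has its summit over 1 kb from the TSS and was also counted, with its match, among the distal regions. The STAT motif was found at Csf2ra and Il1r2 (10.5%, beside 3.56%), and the ETS motif at Csf2ra, Il6st, Il10rb, Ifnar1 and Tnfrsf1a (26.3%, beside 26.5%). No RUNX match was found, beside 8.07% of all accessible promoter regions.

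The partners of the receptors in the pathway were taken from lists of signal transducers, ligands and growth factor receptors. Of 31 signal transducers 24 had an accessible promoter, beside 45.7% of all genes and 73.0% of CpG-rich genes. All 31 had a region in both longer lists, beside 56.5% of all genes and 85.9% of CpG-rich genes. Stat2, a factor downstream of type I interferon, had folds of 11.1 and 12.1, Jak1, a kinase used by gp130 and interferon receptors, 10.5 and 10.7, and Traf6, an adaptor of IL-1 signalling, 12.1 and 11.3. Jak3, the kinase that binds the common gamma chain, Stat4 and Stat5b had no region in either IDR-thresholded list, and Jak2, Socs3, Ptpn6 and Ptpn11 had one in 1 library. Of 30 ligands 4 were accessible, beside 18.6% of all CpG-poor genes: Csf2 with 8.62 and 10, Il6 with 11.7 and 12.3, Gh with 6.41 and 7.84 and Inhba with 7.36 and 9.99. Both longer lists held a region for 13 of the 30 ligands, beside 27.3% of all CpG-poor genes and 56.5% of all genes. CpG content moved with this contrast too, since 25 of the 31 transducers and 2 of the 30 ligands were CpG-rich, and its part was not tested. Of 5 growth factor receptors of progenitors, Epor (7.93 and 9.35) and Kit (6.79 and 6.52) were accessible, beside 45.7% of all genes, and Csf1r, Csf3r and Flt3 were not. In the longer lists Flt3 had 4.51 and 5.51, and Csf3r had 4.97 in replicate 2 only.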

How the data were processed

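ATAC-seq of 2 MEP libraries was analysed from the deposited peak lists, in narrowPeak layout on mm10 per the file headers. The deposited ratio column is a fold per peak, read from its place and values as enrichment over local background, with no scaling between libraries. The deposited −log10 p grows with depth, and the deposited score of the ranked lists is the −log10 global IDR. Read from its values, the thresholded lists correspond to a global IDR of 0.05. The authors made per-library lists (IDR-thresholded and pseudoreplicated) and lists across both libraries (conservative, pooled pseudoreplicate and replicated), per the file headers and labels. For the aligner, the peak caller and its handling of Tn5 cuts, names and settings were not given in the sources used here. Library depth is unknown, so no interval could be set on a fold.

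Overlapping or touching peaks were merged into regions that carry the summit and fold of their most significant peak (Python 3.11.15, numpy 2.4.6, pandas 2.3.3). TSS came from all protein-coding transcripts of GENCODE M21, and sequence from the RefSeq GRCm38.p6 genome. A promoter region overlapped TSS ± 1 kb by at least 1 bp. The calling of regions per gene was tested on simulated peaks, planted at or upstream of the TSS of genes with 1 TSS and no other TSS close by. It did not cover genes with several TSS or with overlapping windows. All 40 genes are named. The text gives the fold of each accessible promoter, for the others the longer-list calls, and of the distal regions the 10 of highest pooled fold, the strongest of each gene with 5 or more, and those inside genes without an accessible promoter. The members and lists were chosen with earlier results of these data known. No test was made, since there is 1 group and genes are not replicates. Alternatives changed the peak list, window, TSS, overlap, class definition and libraries used. One gene of the marker and growth factor receptor lists is not reported here.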

Additional observations from a re-analysis of the deposited data

How the results depend on the processing

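The mean number of distal regions was higher for the receptor genes than for all genes under each alternative tried. The share of accessible promoters did not keep its side of the background: the upper 50% of regions by fold left 9 accessible receptor genes (22.5%, against 27.7% of all genes), and 1 restricted receptor. It was also just below with the first TSS only, at 17 genes (42.5%, against 42.8%), and with the summit within 1 kb, at 18 (45%, against 45.2%). The other alternatives gave 18 to 26 accessible genes and shares above the background. The wider definition of shared chains (4 of 13, 30.8%) and the narrower one of restricted receptors (4 of 11, 36.4%) together turned the order of these classes. Neither did so alone, but taken alone they count Il2rb, Il7r and Il12rb1 in both classes or in neither. Among the CpG-poor genes the longer lists gave 11 of 24 (45.8%, against 27.3% of all CpG-poor genes). Among the CpG-rich genes they gave 15 of 16 (93.8%, against 85.9% of all CpG-rich genes). This split of the longer lists was chosen after seeing the data, as were the summit within 1 kb and the stricter CpG limits. The stricter limits gave 12 of 15 CpG-rich genes, beside 72.7%, and 7 of 25 others, beside 27.6%. Mean distal regions per receptor gene (all genes in brackets) were 4.15 (2.96) in the pooled pseudoreplicate list, 8.12 (6.33) in the replicated list, 2.02 (1.35) in the upper 50% by fold, 3.27 (2.37) within 50 kb of the first TSS, 1.25 (0.88) inside the gene, 6.9 (5.49) with 100 kb either side and 1.88 (1.33) by nearest TSS. In single libraries they were 2.45 to 2.73, from the per-library IDR-thresholded lists, without replicate 2 and without replicate 1. Shorter or longer lists and narrower or wider windows give these shifts by construction. Without replicate 1, Il27ra was added to the accessible genes, and without replicate 2, Il17ra and Il6ra. With the first TSS only, Il11ra1 and Il1r2 were not accessible, and with ± 500 bp or the summit within 1 kb Ifngr2 was not. No paired analysis was possible because there is 1 group of libraries. Depth limits every missing call.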
